A study of Mus musculus with 12 samples.

Results

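Genes of cholesterol synthesis and lipid supply were examined in dorsal root ganglia (DRG), the clusters of sensory neuron cell bodies beside the spinal cord, together with their satellite glia, Schwann cells and nerve roots. The set held 30 genes, chosen by name from the mevalonate and sterol pathways, their control by sterol regulatory element binding proteins (SREBPs) and fatty acid synthesis, out of 49315 genes in the count table. All 30 were matched by symbol, and all 30 were among the 18295 genes with enough counts to be tested. Bulk RNA sequencing had been done on 12 mice aged 10 months, 1 library per mouse from about 8 pooled ganglia. The 6 Nf2 mice carried Postn-Cre(+) and Nf2 flox/flox, and the 6 DKO (double knockout) mice carried Postn-Cre(+), Nf2 flox/flox and Fak1 flox/flox. By that design both groups lose Nf2, the gene of the tumor suppressor merlin, in cells with a history of Periostin-driven Cre. The DKO mice are designed to lose Fak (Ptk2), the gene of focal adhesion kinase, in those cells as well. Each genotype had 3 mice labelled male and 3 labelled female. The study describes loss of Nf2 in Schwann cells and their precursors, and reports that Nf2 mice develop schwannomas within the DRG. It also reports that DKO ganglia at 10 months were smaller, with less abnormal tissue, a larger share of neuron cell bodies and fewer macrophages. The genotypes thus differ in tumor growth and tissue make-up as well as in Fak, and these cannot be told apart here. Recombination by cell type was not measured here, and no mouse with intact Nf2 is compared here.

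Cells make cholesterol from acetyl-CoA. The mevalonate branch builds isoprenoid units and joins them into farnesyl diphosphate, squalene synthase commits these to sterols, and a series of ring-closing, demethylating and reducing enzymes ends in cholesterol. When sterols in the endoplasmic reticulum are scarce, SCAP escorts SREBPs to the Golgi, where proteases release their active part, and INSIG proteins hold the complex back when sterols are plentiful. SREBP2 chiefly drives the cholesterol genes and SREBP1c the fatty acid genes. Myelin is rich in cholesterol, and Schwann cells make much of their own, which is why these genes are prominent in peripheral nerve.

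The libraries held 21129191 to 41250329 counts, and the lowest count of any of the 30 genes in any mouse was 517 (Ebp). Markers of sensory neurons summed to 8568 to 11812 CPM (read counts scaled to the library total) in Nf2 and 9241 to 10531 CPM in DKO mice, and those of myelinating Schwann cells to 8090 to 11404 and 7935 to 11255 CPM, with no marker of either list at 0 in a mouse. Ptk2 had a lowest, median and highest level of 65.8, 70.1 and 75.5 CPM in Nf2 and of 46.5, 66.8 and 76.0 CPM in DKO mice (log2 fold change -0.15 ± 0.10 SE, edgeR adjusted p = 0.529). Nf2 itself had 109, 130 and 143 CPM in Nf2 and 99.2, 120 and 132 CPM in DKO mice (-0.14 ± 0.08, edgeR adjusted p = 0.435), so whole-gene counts of the mixed tissue did not separate the genotypes by the targeted gene. Mouse 702, an Nf2 mouse labelled male, had 496 CPM of Xist and 0.525 CPM of Ddx3y, which lie in the range of the mice labelled female. The share of counts from mitochondrial genes was 1.99% to 3.15% in 10 mice, 4.45% in mouse 649 (Nf2) and 5.60% in mouse 887 (DKO). Because the tissue is a mixture, fewer cells of a type and less RNA per cell cannot be told apart in any value below.

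The start regions of these genes are shown first, because the genes are known as a group under shared transcriptional control. RefSeq start windows (250 bases before to 50 after the start, GRCm38.p6) were found for 24 of the 30 genes. Fdps, Fdft1, Sqle, Stard4, Scd1 and Scd2 were the others. The 250 bases before the first listed start are printed for 4 genes: Hmgcs1, the only one of the 24 with a sterol regulatory element core by the letters searched, Mvd, with the smallest genotype p, Idi1, with the widest spread between mice, and Fasn, from the fatty acid branch. Hmgcs1 lies at chr13:119690101-119690350 (plus strand), Mvd at chr8:122443423-122443672 (minus strand), Idi1 at chr13:8885356-8885605 (plus strand) and Fasn at chr11:120824548-120824797 (minus strand). All are written 5′ to 3′ along the gene, and capitals mark a sterol regulatory element core (TCACNCCAC) or the CCAAT box of the factor NF-Y, on either strand, so that ATTGG is the box on the opposite strand.
Hmgcs1: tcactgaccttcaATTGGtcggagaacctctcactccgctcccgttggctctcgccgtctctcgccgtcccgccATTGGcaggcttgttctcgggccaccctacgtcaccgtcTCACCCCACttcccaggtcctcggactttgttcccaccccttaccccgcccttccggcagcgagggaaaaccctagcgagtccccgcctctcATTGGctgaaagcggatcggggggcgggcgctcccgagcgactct
Mvd: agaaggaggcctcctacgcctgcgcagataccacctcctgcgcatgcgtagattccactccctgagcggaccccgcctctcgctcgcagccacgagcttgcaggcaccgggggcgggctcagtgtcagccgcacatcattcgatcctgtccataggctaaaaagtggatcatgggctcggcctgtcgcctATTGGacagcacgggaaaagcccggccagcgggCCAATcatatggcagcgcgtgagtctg
Idi1: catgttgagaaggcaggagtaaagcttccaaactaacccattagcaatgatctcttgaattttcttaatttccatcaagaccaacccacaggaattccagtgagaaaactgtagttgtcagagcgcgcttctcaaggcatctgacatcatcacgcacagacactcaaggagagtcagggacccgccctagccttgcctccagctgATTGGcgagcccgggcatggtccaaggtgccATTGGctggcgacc
Fasn: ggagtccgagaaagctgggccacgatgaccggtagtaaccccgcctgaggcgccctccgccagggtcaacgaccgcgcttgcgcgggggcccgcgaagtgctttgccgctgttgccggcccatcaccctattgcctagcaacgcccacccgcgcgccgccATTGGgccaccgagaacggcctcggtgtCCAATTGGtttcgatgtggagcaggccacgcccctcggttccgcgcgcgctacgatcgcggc

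The 4 stretches differ in how the boxes are arranged. Hmgcs1 carried the core at 137 bases before the start with CCAAT boxes on both sides of it. Mvd and Idi1 each had 2 CCAAT boxes within 60 bases of the start, and in Fasn a pair of boxes on opposite strands overlapped. Over the 24 genes, 20 (83.3%) held CCAAT in at least 1 window, against 41.1% of the 27025 genes in the promoter table. The Sp1 motif GGGCGG was present in 20 (83.3%) against 38.2%, the E-box CACGTG in 5 (20.8%) against 8.09%, and the sterol regulatory element core in 1 (4.17%) against 1.44%. By window, 37.4%, 35.7%, 7.15% and 1.24% of all 32851 windows held the CCAAT, Sp1, E-box and sterol motifs. Acaca, Acat2, Elovl6 and Scap were the 4 genes without CCAAT. A match describes letters and is not evidence of binding, and genes with several windows had more chances of a match. The 27025 genes include genes too low to be tested here, and the set was not compared with genes of a like level.

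**Figure D1:**
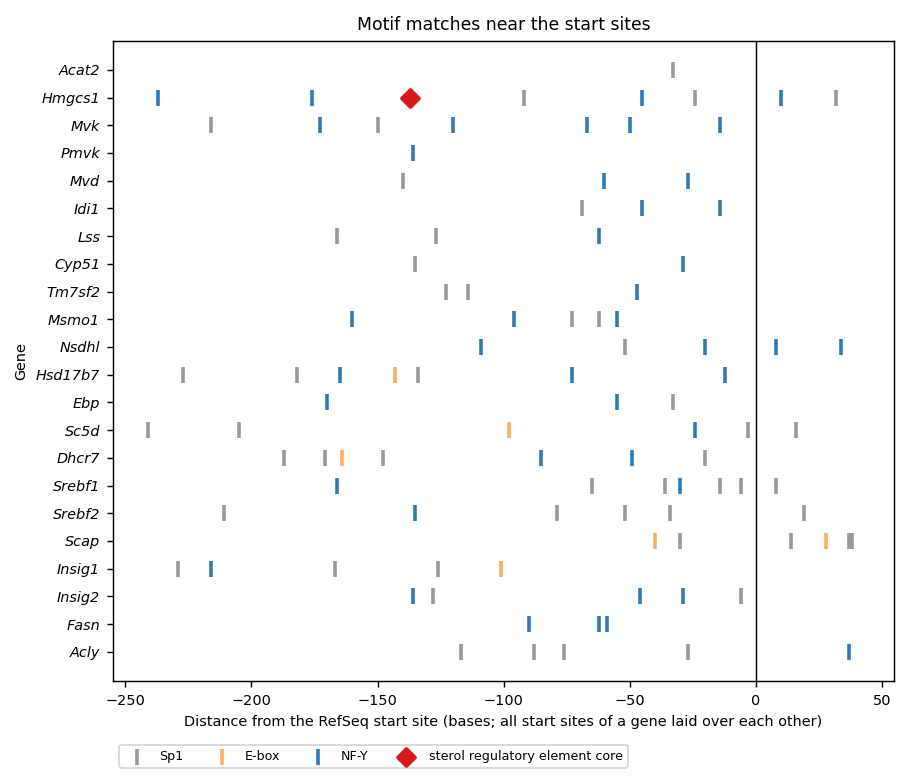
Positions of motif matches (marks) relative to the RefSeq start site (0, x axis in bases) for the 22 genes of the set with at least 1 match, 1 gene per line, with all start windows of a gene laid over each other. CCAAT boxes (blue) lie mostly before the start, and the single sterol regulatory element core (red diamond) is that of Hmgcs1.

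Levels were compared between genes per kilobase of exon, as mean CPM per kb over the 12 mice. Scd2, which makes monounsaturated fatty acids, led with 431 CPM per kb. Hmgcs1 (HMG-CoA synthase, the condensing step before mevalonate) followed with 181, the related desaturase Scd1 with 156 and Acly, which supplies cytosolic acetyl-CoA, with 103. The lowest were Lss, the enzyme that folds squalene epoxide into lanosterol, with 7.05 and Acaca, the carboxylase that commits acetyl-CoA to fatty acids, with 8.94 CPM per kb. Exon length here is the union of all annotated transcripts, 10787 bases for Lss and 17074 for Acaca, which lowers the value of genes with long alternative exons. In CPM, the summed level of the 30 genes was 6916 to 8269 in Nf2 and 6648 to 7947 in DKO mice, overlapping ranges.

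**Figure D2:**
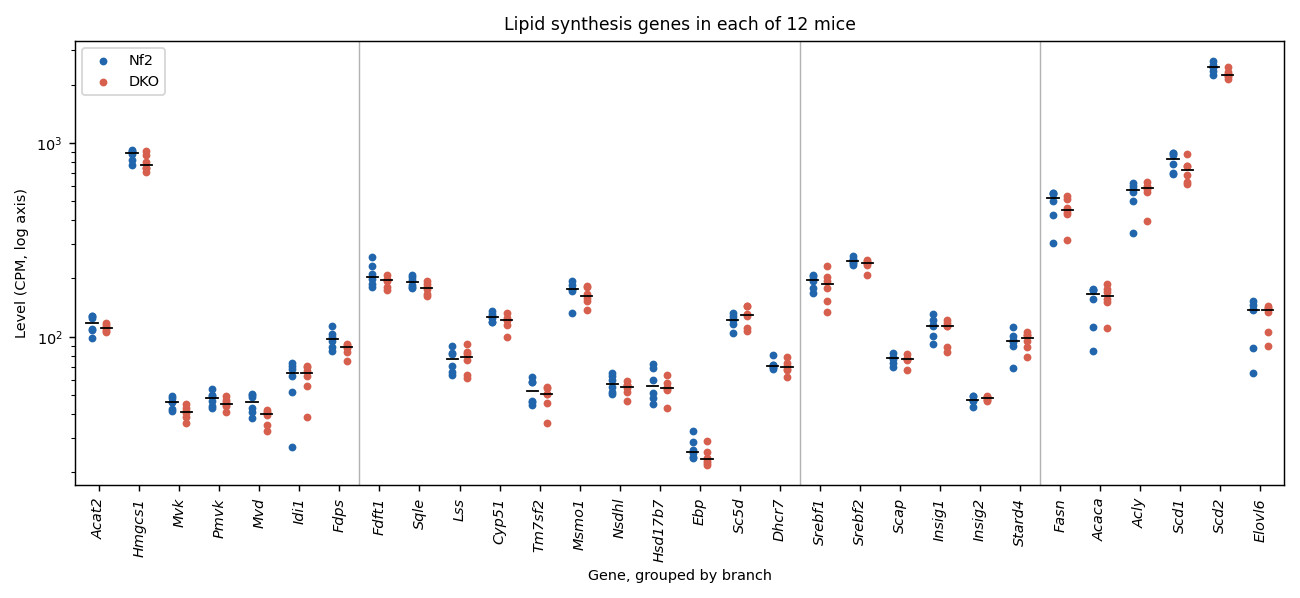
Level of each of the 30 genes in each mouse (points; CPM on a log axis) in Nf2 (blue) and DKO (red) mice, with the median of 6 mice as a black bar and vertical lines between the 4 branches. The genotypes overlap for all 30 genes, and low points stand out for Idi1, Fasn, Acaca, Acly and Elovl6.

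The comparison of DKO with Nf2 asks whether lipid synthesis transcripts differ between ganglia of these genotypes, which by the study differ in tumor tissue. None of the 30 genes passed an edgeR adjusted p of 0.05, where 0.940% of all tested genes did. At an unadjusted p under 0.05 there were 4 (13.3%), against 14.9% of all genes tested, so the share lay near the background. These 4 were Mvd, Mvk, Fdps and Sqle, and in each the fitted level was lower in DKO mice. Of all 2722 tested genes with that p, 1457 were lower in DKO mice, which is 7.96% of all genes tested. DESeq2 called 0 of the 30, against 4.54% of all genes, and 5 (16.7%) at an unadjusted p under 0.05, against 16.1%. Limma voom also called 0, against 2.85%, and 5 (16.7%) unadjusted, against 18.5%. The CPM ranges of the genotypes overlapped for all 30 genes, and they did not overlap for 1.95% of all genes. The fitted log2 fold change was below 0 for 23 of the 30 (76.7%), against 49.0% of all genes, with a median of -0.10 against 0.005. The 30 genes share regulators and libraries, so their common sign is not a count of independent events, and it varied with the mice included. It was 19 of 30 without mice 702 and 887 (51.6% of all genes), 20 in mice labelled male (50.9%) and 29 in mice labelled female (48.5%). It was 29 without mouse 649 (46.4%) and 28 without mice 649, 887 and 1048 (46.1%). The mice labelled male include mouse 702, whose Xist and Ddx3y levels lie in the female range.

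The precision was sufficient to bound the differences. All 30 genes had a 95% interval of the fold change within 1.5-fold in either direction, a condition that 66.3% of all genes met. The narrowest was Insig2, an SREBP anchor, with a fitted log2 change of 0.01 (95% interval -0.09 to 0.12). The widest were Idi1 (0.02, -0.42 to 0.46) and Elovl6 (0.04, -0.38 to 0.45). The interval still held the change fitted for Mvd, the lowest of the set, in 18 of the 30 genes, Mvd included.

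**Figure D3:**
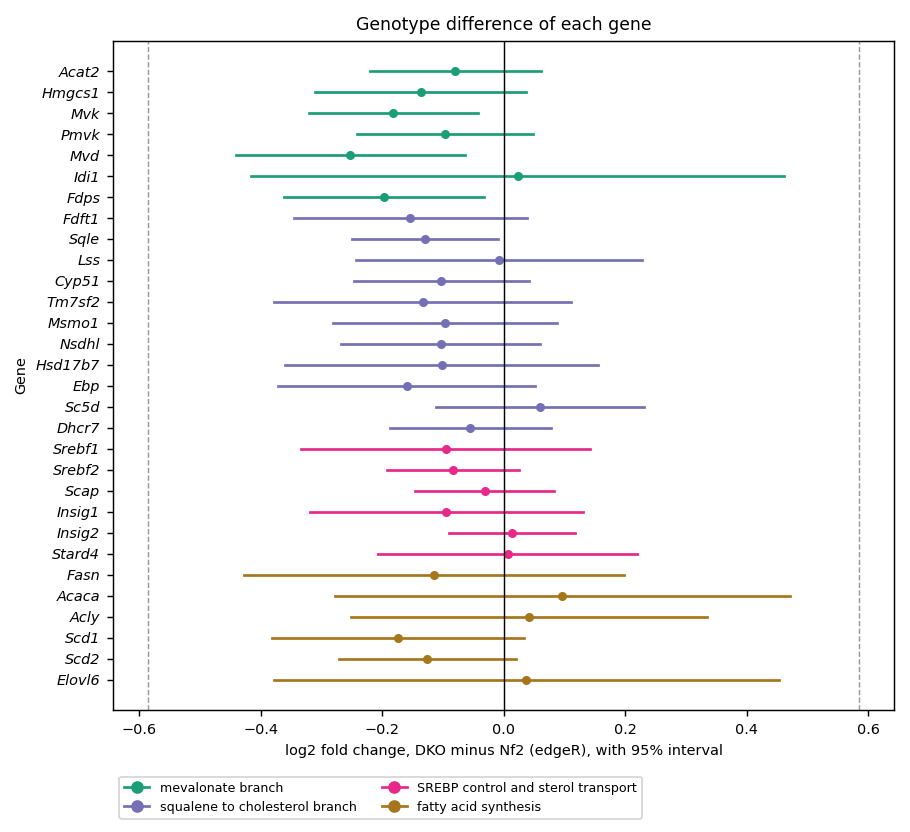
Log2 fold change of DKO minus Nf2 (points) with its 95% interval (lines) from the edgeR fit for the 30 genes, coloured by branch, with 0 as a solid line and 1.5-fold as dashed lines. No interval reaches the dashed lines, and those of Mvd, Mvk, Fdps and Sqle exclude 0 before adjustment over all genes.

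Of the mevalonate branch, 0 of 7 genes passed, with a median log2 fold change of -0.14 and 6 of 7 below 0. Mvd (ENSMUSG00000006517, chromosome 8, 122433601 to 122443422), the decarboxylase that makes isopentenyl diphosphate, had a lowest, median and highest level of 38.2, 45.9 and 50.8 CPM in Nf2 and 32.7, 40.0 and 42.1 CPM in DKO mice. The 6 DKO mice lay below the Nf2 median, although Nf2 mice 884 and 918 fell among them. Its log2 fold change was -0.25 ± 0.09 (SE, n = 6 per genotype), with an edgeR p of 0.0123 and an adjusted p of 0.183. Mvk (ENSMUSG00000041939, chromosome 5, 114444269 to 114460591), which phosphorylates mevalonate, had 41.2, 46.1 and 49.4 CPM in Nf2 and 35.9, 40.9 and 44.9 CPM in DKO mice. All DKO mice were again below the Nf2 median, with the lowest level in mouse 887 and overlap in the middle of the range. The log2 fold change of Mvk was -0.18 ± 0.06 (edgeR adjusted p = 0.197).

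Fdps (ENSMUSG00000059743, chromosome 3, 89093588 to 89101959), which joins isoprenoid units into farnesyl diphosphate, had 84.3, 97.8 and 114 CPM in Nf2 and 74.9, 88.5 and 91.3 CPM in DKO mice. Its fold change was -0.20 ± 0.08 on the log2 scale (edgeR adjusted p = 0.238), and the highest level was that of Nf2 mouse 649. Fdps shares 1124 exon bases with Gm43738 on the same strand, so its reads may be divided between them. Hmgcs1 had 766, 888 and 916 CPM in Nf2 and 706, 772 and 914 CPM in DKO mice, with a fitted log2 change of -0.14 ± 0.08 (edgeR adjusted p = 0.469). The DKO maximum was almost that of Nf2. Pmvk, the kinase between Mvk and Mvd, had 42.8, 48.2 and 53.9 CPM in Nf2 and 41.1, 45.1 and 49.5 CPM in DKO mice (-0.10 ± 0.07, edgeR adjusted p = 0.549). Acat2, which makes acetoacetyl-CoA, had a fitted log2 change of -0.08.

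Idi1 (ENSMUSG00000058258, chromosome 13, 8885501 to 8892451), the isomerase that interconverts the isoprenoid units, had the widest spread of the 30 genes. It had 27.2, 65.3 and 73.0 CPM in Nf2 and 38.7, 64.8 and 70.5 CPM in DKO mice, a fitted log2 change of 0.02 ± 0.20 (edgeR adjusted p = 0.972). Each genotype had 1 mouse far below the others, mouse 649 in Nf2 and mouse 887 in DKO, and the whole range spanned 2.69-fold. The median range over the 30 genes was 1.47-fold, and the narrowest, of Insig2, was 1.15-fold.

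In the branch from squalene to cholesterol, 0 of 11 genes passed, with a median log2 fold change of -0.10 and 10 of 11 below 0 (median -0.07 without mouse 886). Fdft1 (squalene synthase) had 180, 205 and 258 CPM in Nf2 and 173, 195 and 208 CPM in DKO mice, with a fitted log2 change of -0.15 ± 0.09 (edgeR adjusted p = 0.458). The highest level was that of mouse 649, and 774 exon bases of Fdft1 are shared with Ctsb on the opposite strand. Sqle (ENSMUSG00000022351, chromosome 15, 59315077 to 59331192), the epoxidase that follows, had 178, 191 and 208 CPM in Nf2 and 162, 179 and 194 CPM in DKO mice. The 3 lowest Nf2 mice lay within the DKO range, with a fitted log2 change of -0.13 ± 0.06 (edgeR adjusted p = 0.289). Cyp51, which demethylates lanosterol, had 120, 126 and 136 CPM in Nf2 and 99.8, 122 and 133 CPM in DKO mice (-0.10 ± 0.07, edgeR adjusted p = 0.517), and DKO mouse 886 was the lowest. Ebp, the sterol isomerase, had 23.7, 25.6 and 32.7 CPM in Nf2 and 21.8, 23.3 and 29.0 CPM in DKO mice (-0.16 ± 0.10, edgeR adjusted p = 0.491).

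The other 7 genes of this branch had log2 fold changes from -0.13 to 0.06. Tm7sf2 and Sc5d, a reductase and a desaturase of the late steps, marked the ends of that range, and Lss was at -0.01. Tm7sf2 shares 532 exon bases with Vps51 on the same strand. Dhcr7, whose product reduces the last precursor in one route to cholesterol, was at -0.05, and Msmo1, Nsdhl and Hsd17b7, which remove the C4 methyl groups, each at -0.10.

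Among SREBP control and sterol transport genes, 0 of 6 passed, with a median log2 fold change of -0.06 (-0.03 without mouse 887 and also without mouse 917). Srebf2, the gene of SREBP2, had 235, 246 and 262 CPM in Nf2 and 210, 240 and 250 CPM in DKO mice (-0.08 ± 0.05, edgeR adjusted p = 0.485). Srebf1 ranged more widely in DKO mice, from 134 to 232 CPM, than in Nf2 mice, from 169 to 208 CPM, and its log2 fold change was -0.10 ± 0.11. Scap, the escort, was at -0.03, Insig1 at -0.09, and Stard4, a carrier of cholesterol between membranes, at 0.01. Transcript levels do not report on SREBP cleavage, which controls these factors in the cell.

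Of fatty acid synthesis, 0 of 6 genes passed, with a median log2 fold change of -0.04 and 3 of 6 below 0. That median had no stable sign: it was -0.12 without mouse 649, -0.10 without mouse 1048, -0.07 without mouse 915, -0.06 without mouse 914, -0.02 without mouse 918 and -0.01 without mouse 1049, and it was above 0 without mouse 884 (0.001), 702 (0.005) or 887 (0.02). Scd2 had 2235, 2453 and 2648 CPM in Nf2 and 2137, 2234 and 2468 CPM in DKO mice (-0.13 ± 0.07, edgeR adjusted p = 0.421). Scd1 had 695, 825 and 883 CPM in Nf2 and 614, 724 and 875 CPM in DKO mice (-0.17 ± 0.10, edgeR adjusted p = 0.434). Scd1 and Scd2 are close paralogs, and how shared reads were counted is not given in the sources used here. Acaca (ENSMUSG00000020532, chromosome 11, 84129672 to 84401651) had 84.5, 165 and 177 CPM in Nf2 and 111, 163 and 188 CPM in DKO mice, a fitted log2 change of 0.10 ± 0.17 (edgeR adjusted p = 0.844). Elovl6, which lengthens palmitate to stearate, had 64.8, 138 and 152 CPM in Nf2 and 90.1, 137 and 144 CPM in DKO mice (0.04 ± 0.19, edgeR adjusted p = 0.951). In both, mouse 649 was the lowest and the medians of the genotypes were nearly equal. Fasn (-0.11) and Acly (0.04), the fatty acid synthase and the citrate lyase, likewise had wide standard errors of 0.15 and 0.14.

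Between mice rather than between genotypes, several genes varied together. For Idi1, Scap, Fasn, Acaca and Acly, the 3 lowest mice of the 12 were mice 649, 887 and 1048, which were also the 3 with the highest mitochondrial share of counts (4.45%, 5.60% and 3.15%). Acly had 344 CPM in mouse 649, 394 in mouse 887 and 502 in mouse 1048, against 558 to 630 CPM in the other 9 mice. Fasn had 306, 317 and 427 CPM in the same 3 mice, and Acaca had 84.5, 111 and 112 CPM. For Ebp the same 3 mice were the highest. The mean deviation of the 6 fatty acid genes from their mean over the 12 mice, in log2(CPM + 1), was -0.52 in mouse 649, -0.34 in mouse 887 and -0.20 in mouse 1048, and between -0.07 and 0.22 in the others. For the mevalonate branch it was 0.03 in mouse 649, -0.13 in mouse 887 and 0.10 in mouse 1048, so that branch as a whole did not follow the same order.

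**Figure D4:**
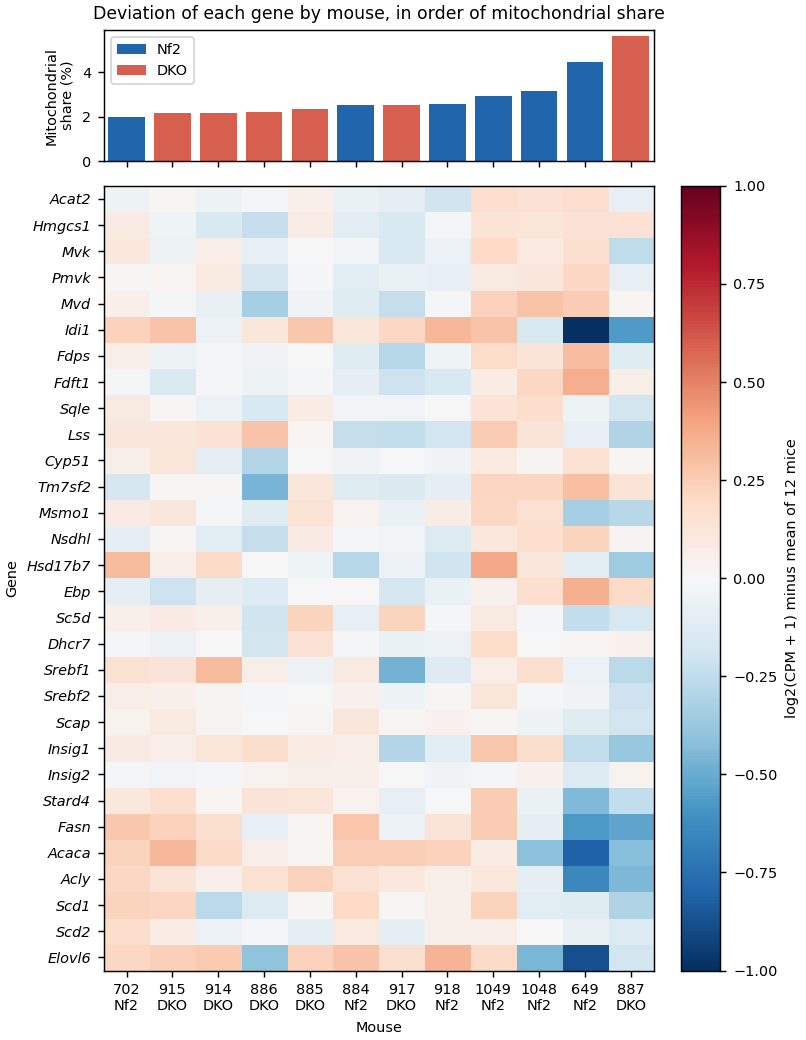
Top, mitochondrial share of counts (%) of each mouse (bars; blue Nf2, red DKO). Bottom, deviation of each gene from its mean over 12 mice in log2(CPM + 1) (colour, limited to 1 in either direction), with mice in order of that share. The columns of mice 649 and 887, and in part 1048, are blue for Idi1, Fasn, Acaca and Acly, while Ebp, Fdft1 and Fdps in mouse 649 are red.

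The mitochondrial share was then fitted across all genes beside genotype, a comparison chosen after the data had been seen. With a higher share, 8 of the 30 genes (26.7%) were lower, where 12.4% of all genes were, and 2 (6.67%) were higher, where 13.1% were. In either direction these were 10 of 30 (33.3%) against 25.5% of all genes, and DESeq2 called 13 of 30 (43.3%) against 28.9%. The 8 lower genes were Acly, Fasn, Acaca, Idi1, Stard4, Scap, Msmo1 and Insig1, and the 2 higher ones were Ebp and Fdft1. Per percentage point, Acly changed by -0.21 ± 0.04 on the log2 scale (SE, edgeR adjusted p = 0.00253), Fasn by -0.22 ± 0.04 (edgeR adjusted p = 0.00387), Idi1 by -0.30 ± 0.07 (edgeR adjusted p = 0.00862) and Ebp by 0.14 ± 0.03 (edgeR adjusted p = 0.00536). The number of genes of the set past the threshold was 5 without mouse 649, 6 without mouse 702 and 6 without mouse 915. Without mouse 887 it was 9, and the slopes of Acly and Fasn were -0.34 and -0.37 (edgeR adjusted p = 0.00215 and 0.00303). In that fit mouse 649 had a share of 4.45% and the other mice at most 3.15%, so these slopes leaned on 1 mouse. Msmo1, Scap and Insig1 no longer passed there (edgeR adjusted p = 0.0781, 0.149 and 0.273). Elovl6 and Nsdhl passed in that fit only by leaving mouse 887 out (edgeR adjusted p = 0.0168 and 0.0437, against 0.116 and 0.0980 with all mice).

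**Figure D5:**
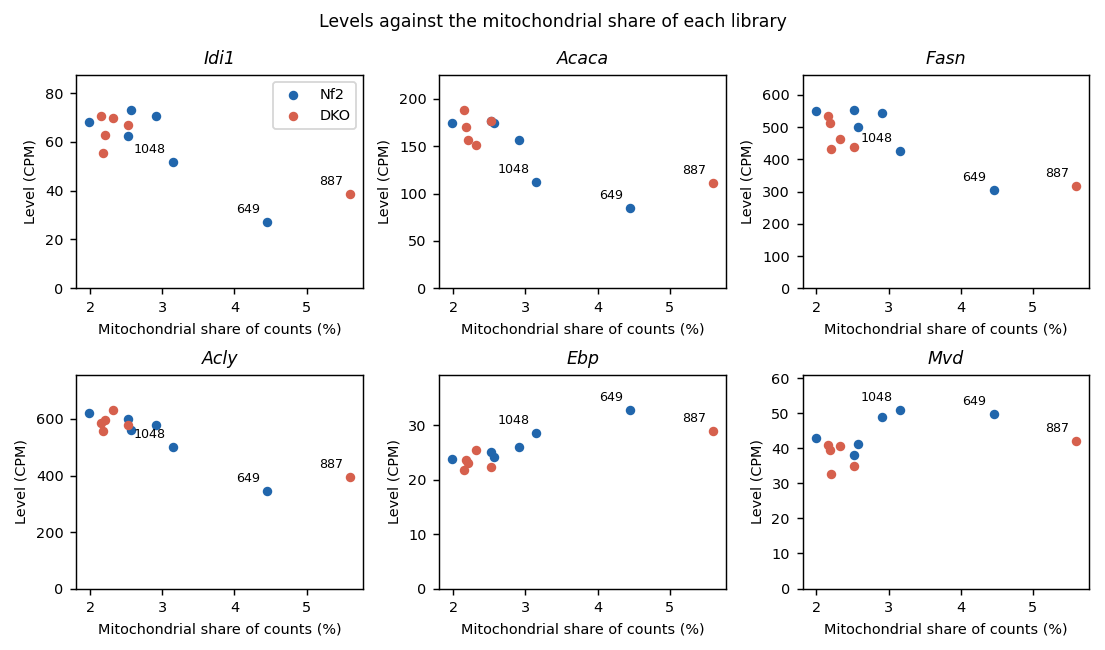
Level (CPM, y axis from 0) of 6 genes against the mitochondrial share of counts of each library (%, x axis), with Nf2 mice in blue and DKO mice in red and the 3 mice of highest share numbered. Idi1, Acaca, Fasn and Acly are lowest in the numbered mice, and Ebp is highest there. For Mvd, mice 649 and 1048 are the highest of the Nf2 mice and mouse 887 the highest of the DKO mice.

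Exon length moved with these slopes. The 8 lower genes had a median exon length of 5865 bases, the other 20 a median of 4730, and the 2 higher ones 2310 and 4227 bases. Over all genes, those lower with the share had a median of 6083 bases and those higher 2992 bases, against 3922.5 for all genes with a length. Spearman's rho of exon length with the slope was -0.57 across the 30 genes and -0.27 across 18236 genes. These are descriptions across genes, which share the same 12 libraries and are not independent replicates. The part of transcript length or RNA quality in the spread between mice was not tested. With the share as a covariate, the genotype comparison still called none of the 30 genes. At an unadjusted p under 0.05 there were 8 (26.7%), against 20.0% of all genes in that fit. Without mice 649, 887 and 1048 it also called none, with 4 (13.3%) unadjusted against 17.8% of all genes. Among these fits Mvd came nearest the threshold, with an adjusted p of 0.0958 with the covariate.

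Labelled sex was compared with genotype as a covariate. None of the 30 genes passed in edgeR or in DESeq2, where 0.0164% of all genes passed in edgeR. At an unadjusted p under 0.05 there were also none in either tool, against 2.91% of all genes in edgeR. The fitted differences of mice labelled male minus mice labelled female ranged from -0.08 to 0.17 on the log2 scale over the set. The interaction of genotype with labelled sex called 0 of the 30 in both tools, where 0.0109% of all genes passed in edgeR. None had an unadjusted p under 0.05 in either, against 4.78% of all genes in edgeR. With 3 mice per genotype and labelled sex, these fits are less precise than the genotype comparison. They count mouse 702 as male against its Xist and Ddx3y levels, so they compare labels and cannot decide on sex itself. No fit with sex set by those 2 genes was run. Without mouse 702, 0 of the 30 genes passed for labelled sex and 0 for the interaction.

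Neighbouring lipid genes, listed by pathway, gave 1 call, where 0.940% of all genes tested were called. Among 14 other genes of fatty acid and glycerolipid supply, Fads1 (ENSMUSG00000010663, chromosome 19, 10182888 to 10196877), the delta-5 desaturase of polyunsaturated fatty acid synthesis, fell in DKO mice. It had 423, 486 and 510 CPM in Nf2 and 317, 345 and 392 CPM in DKO mice, ranges that did not overlap, as for 1.95% of all genes. Its log2 fold change was -0.47 ± 0.07 (edgeR adjusted p = 0.00838), and it passed in 27 of the 29 alternative fits. The exceptions were mice labelled female alone (-0.46, edgeR adjusted p = 0.193) and mice labelled male alone (-0.49, edgeR adjusted p = 0.311). Fads2, the delta-6 desaturase beside it on chromosome 19, had 127, 184 and 198 CPM in Nf2 and 87.3, 144 and 168 CPM in DKO mice (-0.35 ± 0.15, edgeR adjusted p = 0.293). Unlike Fads1 (slope -0.01 per percentage point), Fads2 was lower with a higher mitochondrial share (-0.23, edgeR adjusted p = 0.00379). Elovl7, a fatty acid elongase, had a fitted log2 change of 0.16 ± 0.06 (edgeR adjusted p = 0.219), and the median of the 14 genes was 0.01.

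Of 15 genes of cholesterol uptake, efflux, storage and turnover, none passed in edgeR. There were 2 with an unadjusted p under 0.05, where 14.9% of all genes had one. Abcg1, a cholesterol exporter, had 43.1, 46.1 and 51.1 CPM in Nf2 and 51.3, 55.7 and 59.8 CPM in DKO mice (0.25 ± 0.07, edgeR adjusted p = 0.0975). Its ranges did not overlap, as for 1.95% of all genes. Stard3, a late endosomal cholesterol carrier, had 32.7, 44.1 and 49.0 CPM in Nf2 and 47.0, 57.6 and 67.0 CPM in DKO mice (0.41 ± 0.11, edgeR adjusted p = 0.107). Scarb1, a receptor for high-density lipoprotein, was at -0.18 ± 0.10 (edgeR adjusted p = 0.445), and the median of the list was 0.03. Of 6 other sterol and isoprenoid enzymes and SREBP proteases, 0 passed and 0 had an unadjusted p under 0.05, with a median of 0.01. Ggps1, which makes the geranylgeranyl donor, was at 0.11, and Mbtps2, one of the proteases that release SREBPs, at 0.02. Of 8 genes of myelin sphingolipid synthesis, 0 passed and 1 had an unadjusted p under 0.05, against 14.9% of all genes. This was Fa2h, the fatty acid 2-hydroxylase of myelin galactolipids (0.33 ± 0.13, edgeR adjusted p = 0.264). The median of the 8 was -0.04, with 5 below 0 and 3 above.

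Markers of other cell types were set beside these results. The macrophage list had 10 of 10 genes below 0 with a median log2 fold change of -0.45, and 1 of them, C1qb, passed (-0.71, edgeR adjusted p = 0.0138). Its summed level was 223 to 332 CPM in Nf2 and 182 to 245 CPM in DKO mice. The skeletal muscle list had a median of -2.09 with 9 of 9 below 0 and 0 past the threshold, summing to 12.6 to 890 CPM in Nf2 and 17.9 to 293 CPM in DKO mice. Adipocyte markers were low, 11.6 to 17.5 CPM in Nf2 and 9.28 to 14.6 CPM in DKO mice over 10 genes. Lep was at 0 in some mice, and Lep and Retn were too low to be tested. The 8 tested had a median of -0.18, led in level by Fabp4. With that list as a covariate none of the 30 genes passed. Myelinating Schwann cell markers had a median of 0.06 and 0 of 11 past the threshold, with Mbp the most abundant, and with that list as a covariate 0 of the 30 passed. Sensory neurons (median -0.005, 10 genes, Nefl highest), satellite glia (0.002, 5 genes, Cdh19 highest), endothelial cells (0.21, 4 genes, Cldn5 highest) and oligodendrocytes (0.58, 6 of 7 tested, Mobp highest, 23.1 to 126 CPM in Nf2 and 34.6 to 179 CPM in DKO mice) had 0 genes past the threshold. The part of macrophages and muscle in the lipid gene values was not tested.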

How the data were processed

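DRG of 6 Nf2 and 6 DKO mice were sequenced as poly(A) libraries, 1 per mouse. The authors deposited raw whole-number counts per gene. Per the submitters' processing notes, Trimmomatic 0.36, STAR 2.5.2b, featureCounts, Subread 1.5.2 and the GRCm38 build were used, and the strand setting, annotation release and treatment of shared reads are not given in the sources used here. Of 49315 genes, 18295 were kept by filterByExpr with genotype as group. Counts were scaled by TMM and compared by the quasi-likelihood F test of edgeR 4.0.16 (R 4.3.3) over all 12 mice without covariates, with Benjamini-Hochberg adjustment over all genes and a threshold of 0.05. Intervals are 95% from that fit. DESeq2 1.42.0 and limma 3.58.1 served as alternatives, with other scaling, filters, covariates and subsets, and each mouse was left out in turn. The procedure was tested on simulated data. CPM values use the library total. Coordinates and exon lengths came from GENCODE on GRCm38, and promoters from RefSeq.

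The 30 genes and all lists were chosen with earlier results of these data known. Lowest, median and highest levels per genotype were given for the 12 genes of smallest p and the 3 of largest spread (SD of log2(CPM + 1)). Up to 3 genes of smallest p were named from each pathway list, and marker lists were named by their most abundant gene. The values of 1 gene that this rule names are not reported here. The labels name no litter or batch beyond 1 library per mouse, so p-values measure the spread between these libraries. Differences between animals, dissections and library preparations cannot be told apart in that spread. The DKO mice are numbered 885 to 917, while Nf2 mice 649, 702, 1048 and 1049 lie outside that run. What the numbers record is not given in the sources used here. Library totals of 21129191 to 41250329 gave a counting error of at most 4.40% for any value of the 30 genes (lowest count 517).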

Additional observations from a re-analysis of the deposited data

Results flagged for a closer look

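Among 60 groups of 6 mice (30 genes in each genotype), 1 mouse stood far from the others in 6, where about 1 in 20, or 3, is given by chance. All values are log2(CPM + 1). In Nf2 mouse 649, Idi1 was at 4.82 (nearest Nf2 mouse 5.72), Msmo1 at 7.06 (nearest 7.43) and Acly at 8.43 (nearest 8.97). In DKO mouse 887, Acly was at 8.63 (nearest 9.13) and Scap at 6.09 (nearest 6.27). Dhcr7 was high in Nf2 mouse 1049, at 6.35 (nearest 6.18). Mice 649 and 887 had the highest mitochondrial shares, 4.45% and 5.60%, and mouse 1049 had 2.91%. The part of that share in these values was not tested beyond the fit given above.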

How the results depend on the processing

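Across 29 alternatives per gene, 870 fitted values of the 30 genes gave 0 calls, and 56 of them had the other sign than the value reported. The calls of Fads1 were lost in mice labelled female alone and in mice labelled male alone. The number of all genes past the threshold for genotype, 172, was 831 with DESeq2 and 521 with limma voom and quality weights. It was 57 in mice labelled female and 2 in mice labelled male, mouse 702 among them. It was 504 with the mitochondrial share as a covariate and 337 without mice 649, 887 and 1048. Both of these last fits were chosen after the data had been seen. Without single mice this number ranged from 81 to 217. For labelled sex, 3 genes became 5 with DESeq2 and 5 with every gene that had a count, and 0 to 10 without single mice (10 without mouse 702). For the interaction, 2 became 20 with DESeq2 and 6 with every gene that had a count, and 2 to 6 without single mice. For the mitochondrial share, 4663 genes became 2075 to 4940 without single mice, and the genes of the set 5 to 11. The median of the mevalonate branch ranged from -0.17 to -0.10 over the alternatives, that of the squalene branch from -0.14 to -0.07 and that of SREBP control from -0.09 to -0.01, all below 0. The fatty acid median ranged from -0.16 (without mice 649, 887 and 1048) to 0.08 (adipocyte list as covariate). It was 0.07 in mice labelled male and -0.14 in mice labelled female. Each move was below 1 SD between mice, which for the fatty acid branch (0.25) is far wider than its median of -0.04. No paired analysis was possible because the labels link no Nf2 mouse to a DKO mouse. The causes were not tested.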
